A study of Homo sapiens with 4 samples.

Results

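The core genes of the Notch pathway were followed in MDA-MB-231, a line of human triple-negative breast cancer cells, after treatment with MGH-CP1. The 10 genes are 4 receptors (NOTCH1, NOTCH2, NOTCH3, NOTCH4), 3 ligands (JAG1, JAG2, DLL1) and 3 target genes (HES1, HES4, HEY1), chosen by symbol from the 48162 genes listed. The table has 11 rows with these symbols, because a processed transcript inside JAG1 carries the same name. That row had 0 to 2 fragments per library, and the protein-coding row of JAG1 was used.

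RNA was taken after 24 h with MGH-CP1, a small molecule that blocks the autopalmitoylation of TEAD transcription factors, or with vehicle, from 2 libraries each. The labels give the dose as 10 µM and the methods as 10 mM. A single cell line was used, and no source says that the 2 libraries of a group came from separate cultures, so the p-values measure the spread between these libraries, which may be technical. In RNA from bulk culture, fewer cells with a transcript and less of it per cell cannot be told apart.

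Notch receptors are membrane proteins that a ligand on a neighbouring cell activates. Cleavage by an ADAM protease and then by γ-secretase frees the intracellular domain, which joins the DNA-binding protein RBPJ and Mastermind coactivators in the nucleus. HES and HEY genes, which encode basic helix-loop-helix repressors, are the best known direct targets. In breast epithelium the pathway is known for its part in luminal cell fate.

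The promoters of HES1 and HES4 are shown because they hold the letters that RBPJ recognises. Capitals mark TGGGAA, the core of that recognition sequence, which was searched on both strands (reverse TTCCCA). The letters are RefSeq promoters of build GRCh38.p14 on the strand of the gene, for HES1 chr3:194135978-194136097 (plus strand) and for HES4 chr1:1000163-1000267 (minus strand).
HES1: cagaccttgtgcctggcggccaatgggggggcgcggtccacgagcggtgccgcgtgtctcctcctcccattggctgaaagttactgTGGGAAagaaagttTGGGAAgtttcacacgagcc
HES4: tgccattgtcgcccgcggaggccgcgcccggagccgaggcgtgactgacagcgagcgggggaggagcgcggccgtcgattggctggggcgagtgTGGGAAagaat

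An entry among the RefSeq promoters was found for 8 of the 10 members, all but DLL1 and HEY1. Within 250 bases upstream of the start, TGGGAA occurred in 2 of these 8 genes, HES1 and HES4, and in 20.8% of 34796 promoters of the same length. HES1 had 2 matches, which began 84 and 70 bases upstream, and 2.88% of all promoters had 2 or more. The match in HES4 began 76 bases upstream, and since the GENCODE annotation of the same assembly counts the 75 bases before the RefSeq start as HES4 exon, all but its first base lies in annotated exon. The longest run shared by both windows, TGTGGGAAAGAA, has 12 bases, spans a match in each gene and was found in 5 promoters on the strand of the gene.

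The core of the TEAD recognition sequence, GGAATG (reverse CATTCC), occurred in 0 of the 8 windows and in 11.9% of all promoters. The N box CACNAG (reverse CTNGTG), which HES proteins recognise, occurred in 3 of the 8 (HES1, NOTCH3 and NOTCH4) and in 32.0% of all. These matches describe letters and not binding.

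The values are FPKM, fragments per kilobase of gene scaled to the fragments on genes of each library. These came to 25455533 and 25508824 with vehicle and to 17997221 and 17577930 with MGH-CP1. limma was fitted to log2(FPKM + 1) of the 12080 genes whose mean FPKM was 1 or more, and a gene was called at an adjusted p under 0.05 over all of them. The log2 fold changes of limma are differences on that scale. For genes of low FPKM they are smaller than the ratio of the FPKM values implies. The line's markers VIM, CD44, AXL and KRT18 lay between 86.8 and 293 FPKM, and the hormone receptor genes ESR1 and PGR had at most 4 fragments in any library. ERBB2 (24.7 to 28.4 FPKM) and EPCAM (12.4 to 16.4 FPKM), listed as low or absent in such lines, were detected, while CDH1 lay between 0.289 and 0.638 FPKM. Of the markers of other cell types, CD3E was at 0 and PTPRC at no more than 3 fragments. The exception was ALB, a hepatocyte gene, with 102 fragments in MGH-CP1 replicate 2, 3 in MGH-CP1 replicate 1 and 0 with vehicle. The part of that RNA in the results was not tested.

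Of the 6 members tested, JAG2 was called higher and NOTCH2 lower after MGH-CP1, while NOTCH1, JAG1, HES1 and HES4 were not called. Among all genes tested 27.1% were called higher and 23.8% lower, 50.8% together, so the 33.3% of tested members that were called is no more than the background. The median log2 fold change of the 6 was -0.08 and their median absolute change 0.10, against 0.01 and 0.22 over all genes. The other 4 members (NOTCH3, NOTCH4, DLL1 and HEY1) lay under the filter, with at most 43 fragments in any library.

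**Figure D1:**
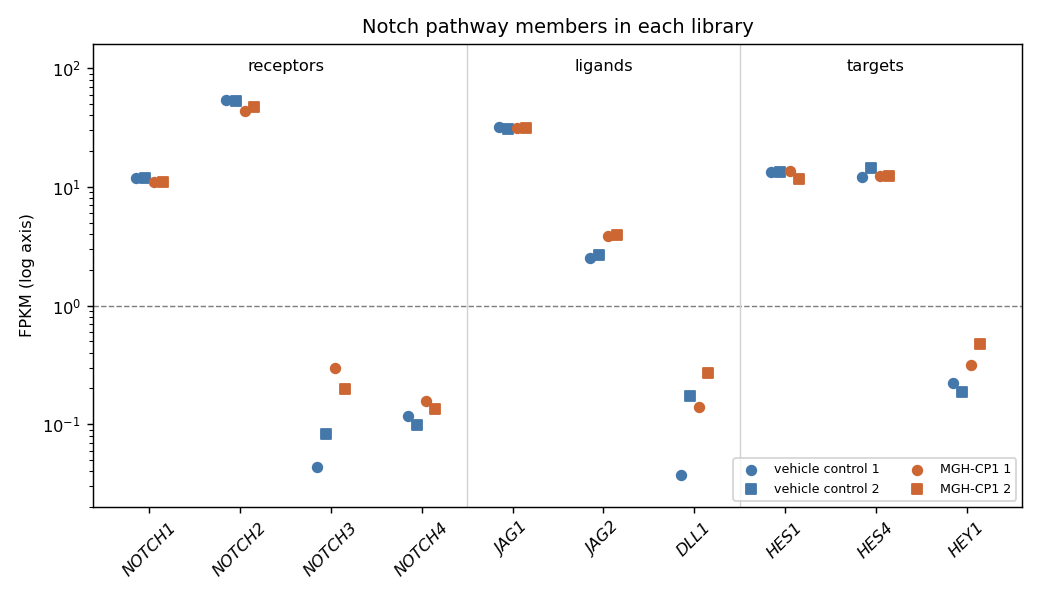
FPKM on a log axis (vertical) of the 10 members (horizontal) in the 4 libraries; blue points are vehicle control, orange points MGH-CP1, circles replicate 1 and squares replicate 2, and the dashed line marks an FPKM of 1. JAG2 is higher and NOTCH1 and NOTCH2 are lower in both MGH-CP1 libraries, and NOTCH3, NOTCH4, DLL1 and HEY1 lie below 1 in every library.

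NOTCH2 was the most abundant receptor transcript (ENSG00000134250, chromosome 1, 120454176 to 120612240, minus strand, on hg19, the build named in the submitters' notes). Its FPKM was 53.6 and 52.7 with vehicle against 43.2 and 47.5 with MGH-CP1. Both treated libraries were below both controls, and MGH-CP1 replicate 1 was the lowest. The mean went from 53.2 ± 0.607 to 45.4 ± 3.07 FPKM (SD, n = 2 each), a ratio of 0.853 and a log2 fold change of -0.23 (SE 0.06, limma adjusted p = 0.0125). Only 2.78% of the listed genes had a higher mean FPKM.

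The call of NOTCH2 depended on MGH-CP1 replicate 1. Its log2 fold change was -0.16 without that library (limma adjusted p = 0.0912) and -0.29 without MGH-CP1 replicate 2, which held the ALB fragments (limma adjusted p = 0.0107). The call was also lost with no filter on low values (limma adjusted p = 0.0810) and where each gene had its own variance (per-gene test adjusted p = 0.161). NOTCH2NL, a partial copy of NOTCH2 that could share reads with it, had 5.46 and 5.87 FPKM with vehicle against 4.09 and 4.86 with MGH-CP1, and these groups did not overlap either.

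NOTCH1 came second among the receptors (ENSG00000148400, chromosome 9, 139388896 to 139440314, minus strand, hg19). Its FPKM was 11.8 in both controls against 10.95 and 10.9 with MGH-CP1. The groups did not overlap, as in 77.2% of all genes tested (37.4% lower and 39.8% higher). The log2 fold change of -0.11 was not called (SE 0.06, 95% interval -0.25 to 0.03, limma adjusted p = 0.177), nor was it in any of 14 other settings. An antisense gene inside NOTCH1, RP11-413M3.4, had 1 to 6 fragments per library.

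NOTCH3, a receptor best known from vascular smooth muscle, was close to the limit of detection (ENSG00000074181, chromosome 19, 15270444 to 15311792, minus strand, hg19). It had 9 and 17 fragments with vehicle against 43 and 28 with MGH-CP1, or 0.0438 and 0.0826 FPKM against 0.296 and 0.197. Both treated libraries were above both controls, and the higher of them was the one with only 3 ALB fragments. The ratio of mean FPKM was 3.90.

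A pair of further fits kept the members that the filter left out. limma with no filter called 9.16% of 24878 genes higher and 7.41% lower, and gave NOTCH3 a difference of 0.23 in log2(FPKM + 1) that was not called (adjusted p = 0.0858). limma voom on the recovered fragments of 17598 genes with 10 or more fragments in all, added after the data were seen, called 22.1% higher and 17.4% lower (39.5% together). In that fit NOTCH3 was called higher, by 1.97 on the log2 scale (SE 0.46, limma voom adjusted p = 0.00181). These fits differ in scale, genes kept and variance model together, and which of these moved the call was not tested.

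NOTCH4, known mainly from endothelium, was the lowest member by mean FPKM (ENSG00000204301, chromosome 6, 32162620 to 32191844, minus strand, hg19). It had 20 and 17 fragments with vehicle against 19 and 16 with MGH-CP1, or 0.116 and 0.0988 FPKM against 0.157 and 0.135. The FPKM groups did not overlap, but the gene was called in neither fit (limma voom log2 fold change 0.44, SE 0.43, adjusted p = 0.452). GPSM3, with 648 to 765 fragments, overlaps NOTCH4 on the same strand, so reads there could be split.

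The summed FPKM of the 4 receptors was 65.6 and 64.8 with vehicle against 54.6 and 58.8 with MGH-CP1. NOTCH2 made up 81.7% and 81.4% of it against 79.1% and 80.9%, and NOTCH1 made up 18.1% and 18.3% against 20.1% and 18.5%. NOTCH3 stood below NOTCH4 in both controls and above it in both treated libraries. The groups did not overlap for any of the 4 shares, and the exact permutation test over libraries (two-sided) gave p = 0.33 for each, which is the smallest value that 2 libraries against 2 can give.

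JAG2, a transmembrane ligand of the Jagged type, changed most among the members tested (ENSG00000184916, chromosome 14, 105607318 to 105635161, minus strand, hg19). Its FPKM was 2.51 and 2.69 with vehicle against 3.88 and 3.90 with MGH-CP1, from 373 to 407 fragments per library. Both treated libraries were above both controls and close to each other. The mean rose by 49.6%, from 2.60 ± 0.125 to 3.89 ± 0.0171 FPKM (SD, n = 2 each). On log2(FPKM + 1) the log2 fold change was 0.44 (SE 0.09, limma adjusted p = 0.00446), and limma voom on recovered fragments gave 0.58.

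JAG2 was called with each library left out in turn, with log2 fold changes of 0.41 to 0.48 (limma adjusted p = 0.0109 to 0.0255). Without MGH-CP1 replicate 2, which held the ALB fragments, the log2 fold change was 0.44. The call was lost where each gene had its own variance (adjusted p = 0.0642). The 3 tested genes nearest to JAG2 over the 4 libraries, by the Euclidean distance of centred log2(FPKM + 1), were TNIP1 (0.0103), CRISPLD2 (0.0106) and ALAD (0.0147). On that scale their log2 fold changes were 0.43, 0.45 and 0.45. The scale understates the change of JAG2 more than that of TNIP1, which lay between 91.7 and 128 FPKM, so the likeness does not hold for FPKM ratios.

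**Figure D2:**
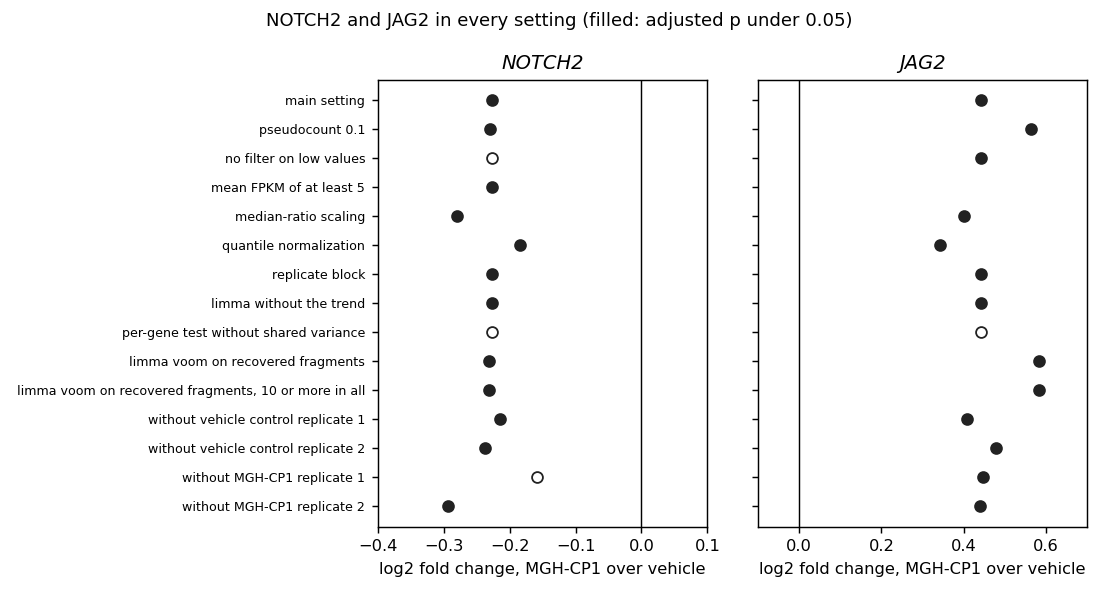
Log2 fold change of MGH-CP1 over vehicle (horizontal) of NOTCH2 and JAG2 in the main setting and each alternative (vertical); filled points have an adjusted p under 0.05 and open points do not. NOTCH2 is below 0 throughout, from -0.29 to -0.16, with 3 open points, and JAG2 is above 0 throughout, from 0.34 to 0.58, with 1 open point.

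JAG1, the other Jagged ligand, was the most abundant ligand transcript (ENSG00000101384, chromosome 20, 10618332 to 10654694, minus strand, hg19). Its FPKM was 32.2 and 31.0 with vehicle against 31.4 and 31.6 with MGH-CP1, so the treated values lay inside the range of the controls. The 95% interval of its log2 fold change ran from -0.12 to 0.12 (SE 0.05, limma adjusted p = 0.961).

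DLL1, a ligand of the Delta type, was barely detected (ENSG00000198719, chromosome 6, 170591294 to 170599561, minus strand, hg19). It had 3 and 14 fragments with vehicle against 8 and 15 with MGH-CP1, and the groups overlapped. A change was not detectable at this depth (limma voom log2 fold change 1.20, SE 0.69, adjusted p = 0.186). Of the other Delta-type ligands, DLL3 had 0 or 1 fragment and DLL4 had 4 to 12 fragments per library.

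The summed FPKM of these 5 ligands was 34.8 and 34.0 with vehicle against 35.5 and 36.0 with MGH-CP1. JAG1 made up 92.5% and 91.1% of it against 88.4% and 87.8%, and JAG2 made up 7.22% and 7.91% against 10.9% and 10.8%. The share of JAG2 was thus higher, and that of JAG1 lower, in both treated libraries. By the exact permutation test (two-sided) p was 0.33 for JAG1, JAG2 and DLL3, the smallest possible value, and 0.67 for DLL1 and DLL4.

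**Figure D3:**
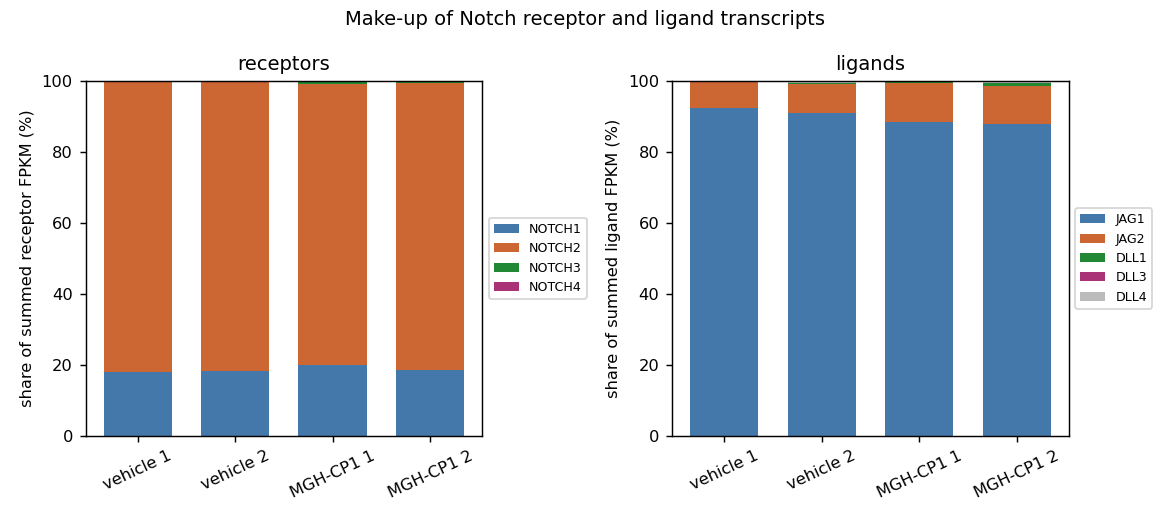
Share (%, vertical, from 0) of each gene in the summed FPKM of the 4 receptors (left) and of the 5 ligands (right), as a stacked bar for each of the 4 libraries. NOTCH2 and JAG1 fill most of every bar, and the JAG2 part is larger with MGH-CP1 (10.9% and 10.8%) than with vehicle (7.22% and 7.91%).

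HES1, a repressor widely used as a readout of Notch, was not called (ENSG00000114315, chromosome 3, 193853934 to 193856521, plus strand, hg19). Its FPKM was 13.4 in both controls against 13.6 and 11.7 with MGH-CP1, with a treated library on either side of the controls. Its log2 fold change was -0.08 (SE 0.08, 95% interval -0.26 to 0.10, limma adjusted p = 0.432). Without MGH-CP1 replicate 2 the sign turned, to 0.02.

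HES4, a related repressor, was not called either (ENSG00000188290, chromosome 1, 934342 to 935552, minus strand, hg19). Its FPKM was 12.1 and 14.4 with vehicle against 12.4 in both treated libraries, inside the range of the controls. Its log2 fold change was -0.08 (SE 0.08, 95% interval -0.28 to 0.11, limma adjusted p = 0.420), and without vehicle control replicate 2 it was 0.03. HES1 and HES4, whose promoters are printed above, thus both had intervals that include 0.

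HEY1, a repressor of the HES-related family, was low (ENSG00000164683, chromosome 8, 80676245 to 80680098, minus strand, hg19). It had 13 and 11 fragments with vehicle against 13 and 19 with MGH-CP1, or 0.222 and 0.188 FPKM against 0.315 and 0.471. The FPKM groups did not overlap and the ratio of means was 1.91. It was called neither in limma voom (log2 fold change 0.90, SE 0.50, adjusted p = 0.169) nor in limma with no filter (adjusted p = 0.177).

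By mean FPKM the members ranked NOTCH2, JAG1, HES1, HES4, NOTCH1, JAG2, HEY1, NOTCH3, DLL1 and NOTCH4. HES1 and HES4 overlapped and changed places between libraries, while NOTCH1 was below both in all 4 libraries. HEY1 was the highest of the 4 low members in every library, and the ranges of NOTCH3, DLL1 and NOTCH4 overlapped.

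A wider list held 61 other genes of the pathway, grouped by role. Of these 50 were tested, and 13 were called higher and 12 lower, a share of calls close to the 50.8% of all genes tested. Their median log2 fold change was -0.01. With no filter on low values 7 of 59 were called higher and 6 lower, in a fit that called 9.16% and 7.41% of 24878 genes. There APH1B, PSENEN, ADAM17, NCSTN, POFUT1, POGLUT1, MAML3, SNW1, CIR1, SIN3A, MYC and CCND1 lost their calls. With a variance for each gene alone 0 were called in either direction, and 11 were higher and 9 lower at an unadjusted p under 0.05. Where NCSTN, RFNG, MIB1, RBPJ, HES6 and NRARP are named below, they were picked after their values were seen.

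All 9 genes of Notch cleavage, which encode proteases and subunits of γ-secretase, were tested. Of these 4 were called higher and 0 lower, against 27.1% and 23.8% of all genes tested. In each of the 9 both treated libraries were above both controls, as in 39.8% of all genes tested. All 9 log2 fold changes stayed above 0 with median-ratio scaling and with quantile normalization, but the number called was 2 with median-ratio scaling, 1 or 2 with a library left out, and 0 in limma with no filter (4 at an unadjusted p under 0.05) and in the per-gene test (2 unadjusted). APH1B, a γ-secretase subunit, had 3.13 and 3.77 FPKM with vehicle against 5.88 and 5.05 with MGH-CP1 (log2 fold change 0.54, SE 0.11, limma adjusted p = 0.00374). APH1B was called with each library left out, but not with no filter (limma adjusted p = 0.0623) or in the per-gene test (adjusted p = 0.135).

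The other 3 cleavage genes called were PSENEN, ADAM17 and NCSTN. PSENEN, another γ-secretase subunit, rose by 0.46 on the log2 scale (limma adjusted p = 0.0160). It had only 35 fragments in each control against 47 and 36 with MGH-CP1, whose libraries were smaller. In the 4 fits with a library left out its log2 fold change was 0.34 to 0.58. PSENEN was not called with quantile normalization (limma adjusted p = 0.0773). ADAM17, a protease, rose by 0.19 (limma adjusted p = 0.0331) and was called in 0 of those 4 fits (limma adjusted p = 0.0570 to 0.153). NCSTN, the γ-secretase subunit nicastrin, rose by 0.15 (limma adjusted p = 0.0409).

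The 5 enzymes that add sugars to Notch went both ways, with 2 called higher and 2 lower, against 27.1% and 23.8% of all genes tested. LFNG, a Fringe glycosyltransferase that changes how Notch responds to its ligands, had 5.85 and 6.18 FPKM with vehicle against 10.3 and 9.74 with MGH-CP1 (log2 fold change 0.65, SE 0.07, limma adjusted p = 0.000231). MFNG, another Fringe gene, rose by 0.57 (limma adjusted p = 0.00397) on 64 to 97 fragments. RFNG had a log2 fold change of 0.24 and was not called (limma adjusted p = 0.0536).

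POFUT1, which adds the fucose that Fringe extends, fell by 0.24 on the log2 scale (limma adjusted p = 0.00897), and its adjusted p was 0.0686 without MGH-CP1 replicate 1. POGLUT1, which adds glucose, fell by 0.27 (limma adjusted p = 0.0311). With a library left out POGLUT1 was called in 0 of 4 fits (limma adjusted p = 0.0528 to 0.173).

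Of 14 ubiquitin and endocytic regulators 11 were tested, and 3 were called higher and 3 lower, against 27.1% and 23.8% of all genes tested. MIB2, a ubiquitin ligase of Notch ligands, rose from 11.9 ± 0.172 to 20.5 ± 0.604 FPKM (SD, n = 2 each, log2 fold change 0.74, SE 0.06, limma adjusted p = 5.77e-05). Its relative MIB1 was not called (log2 fold change -0.12, limma adjusted p = 0.164). NEURL1B, a ligase of the Neuralized family, had 3.42 and 3.62 FPKM against 1.74 and 2.01 (log2 fold change -0.65, SE 0.10, limma adjusted p = 0.00117). On log2(FPKM + 1) MIB2 had the largest rise of the wider list, but by the ratio of mean FPKM (1.73) it was below HES2 (1.91), MFNG (1.87) and DTX3 (1.86).

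DTX3, of the Deltex family, rose by 0.72 (limma adjusted p = 0.000649) and NUMB, an endocytic inhibitor of Notch, by 0.37 (limma adjusted p = 0.000862). NEDD4, a ubiquitin ligase, fell by 0.47 (limma adjusted p = 0.00185) and AAK1, an endocytic kinase, by 0.36 (limma adjusted p = 0.00437). A second row with the symbol AAK1 overlaps the first on the same strand and was also lower (11.5 and 9.98 FPKM against 7.75 and 8.21), so reads could be split. All 6 were called with each library left out. DTX1 and DTX4 did not reach an FPKM of 0.1 in any library.

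RBPJ itself had 60.4 and 56.9 FPKM with vehicle against 57.6 and 58.3 with MGH-CP1 and was not called (log2 fold change -0.02, limma adjusted p = 0.805). Among RBPJ and its coactivators 1 of 12 genes was called higher and 2 lower, against 27.1% and 23.8% of all genes tested. MAML3, a Mastermind coactivator, rose by 0.39 (limma adjusted p = 0.0211), and was called in 1 of 4 fits with a library left out, the one without MGH-CP1 replicate 1. It overlaps MGST2 on the opposite strand, which was also higher in both treated libraries (5.85 and 6.59 FPKM with vehicle against 9.96 and 9.68), and the part of shared reads was not tested. CREBBP, an acetyltransferase, fell by 0.36 (limma adjusted p = 0.00182). SNW1 fell by 0.26 (limma adjusted p = 0.0217), but its log2 fold change was -0.14 without MGH-CP1 replicate 2 (limma adjusted p = 0.122), and it overlaps SLIRP on the opposite strand, which was also lower (26.7 and 28.4 FPKM against 24.4 and 24.5).

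Of 9 corepressor genes 2 were called higher and 3 lower, against 27.1% and 23.8% of all genes tested. The paralogous histone deacetylases moved in opposite directions. HDAC1 had 56.1 and 57.1 FPKM with vehicle against 74.1 in both treated libraries (log2 fold change 0.38, SE 0.05, limma adjusted p = 0.000346). HDAC2 had 18.6 and 18.7 FPKM against 15.2 and 14.9 (log2 fold change -0.29, SE 0.06, limma adjusted p = 0.00320). CIR1, which binds RBPJ, rose by 0.43 (limma adjusted p = 0.00285, and 0.0592 with no filter), and SPEN, which also binds RBPJ, fell by 0.41 (limma adjusted p = 0.00117). SIN3A, a scaffold of deacetylase complexes, fell by 0.30 (limma adjusted p = 0.00786), with an adjusted p of 0.0558 without MGH-CP1 replicate 1.

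Of 7 other HES and HEY genes only 2, HES2 and HES6, passed the filter. HES2 had 2.01 and 1.69 FPKM with vehicle against 3.45 and 3.62 with MGH-CP1, from 184 to 271 fragments (log2 fold change 0.67, SE 0.10, limma adjusted p = 0.00111). HES2 was called with each library left out. HES6 was not called (log2 fold change -0.20, limma adjusted p = 0.196). HES3 and HEY2 had 0 fragments in every library, and HES5 had 3 in vehicle control replicate 1 and 0 in the others. A count of 0 allows up to 3 fragments, by counting error only.

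MYC and CCND1, the gene of cyclin D1, are growth genes known as Notch targets in some tissues. Both were called lower, as were 23.8% of all genes tested. MYC fell by 0.21 (limma adjusted p = 0.00966) and CCND1 by 0.19 (limma adjusted p = 0.0138). Without MGH-CP1 replicate 1 neither was called (limma adjusted p = 0.0636 and 0.114). NRARP, a feedback inhibitor of Notch, was just under the filter, with 0.959 and 1.00 FPKM with vehicle against 0.678 and 0.933 with MGH-CP1.

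**Figure D4:**
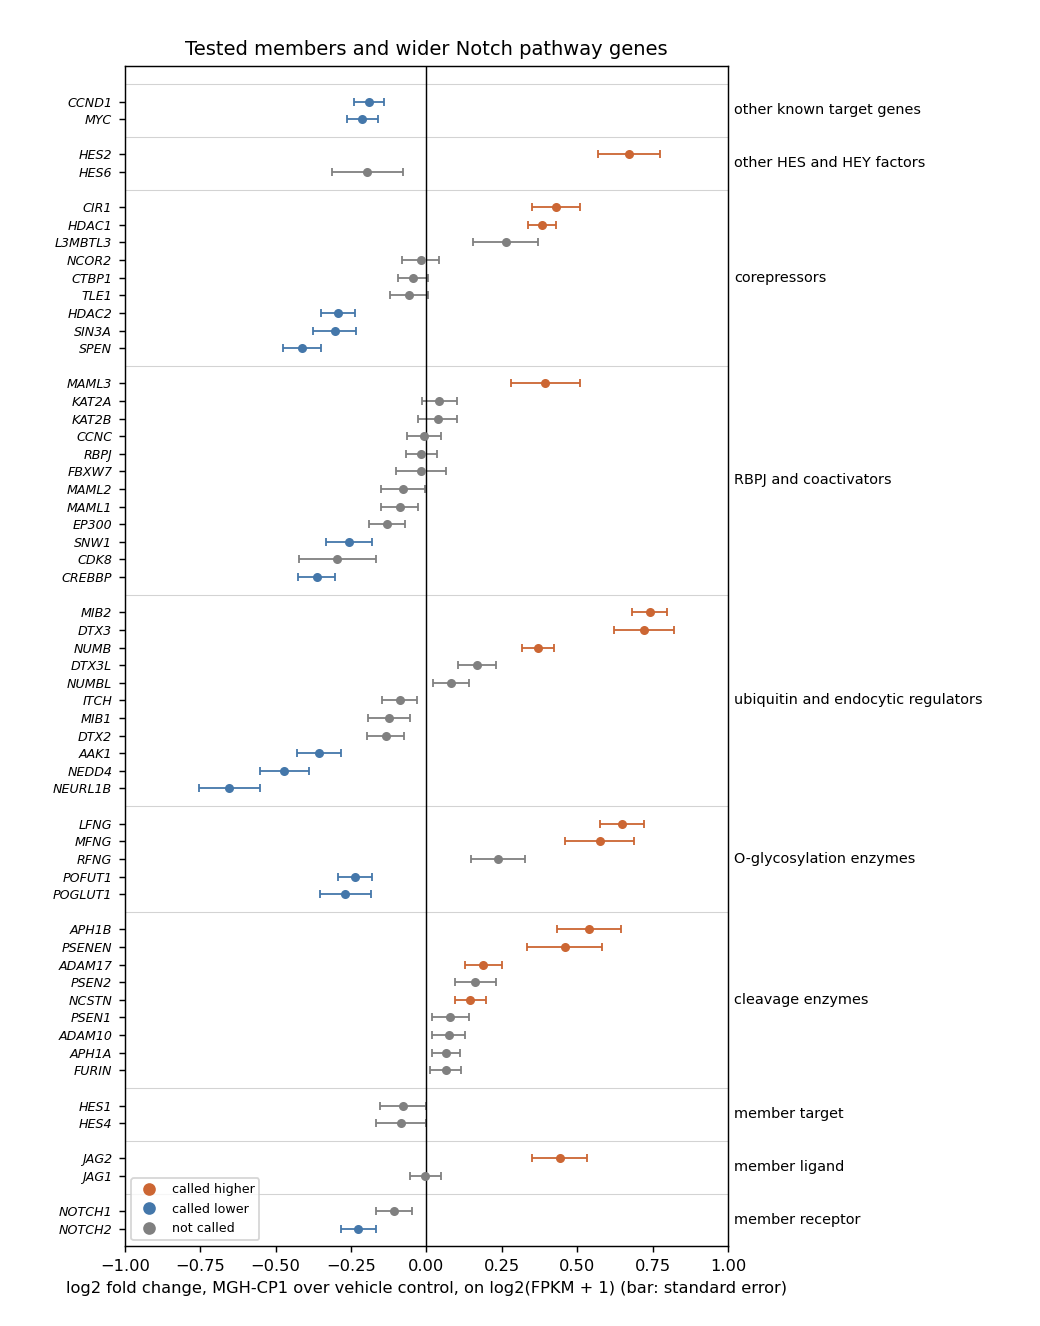
Log2 fold change of MGH-CP1 over vehicle on log2(FPKM + 1) (horizontal, bars are standard errors) of the 6 tested members and the 50 tested genes of the wider list, by role (vertical); orange genes were called higher, blue lower and grey not called. All 9 cleavage genes lie above 0, while the sugar-adding enzymes, ubiquitin regulators, coactivators and corepressors lie on both sides.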

How the data were processed

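RNA-seq of 2 MGH-CP1 and 2 vehicle control libraries of MDA-MB-231 cells was used. The authors deposited FPKM per gene, from 150 bp paired-end reads of poly-T selected mRNA. The submitters' processing notes name CASAVA 1.8, STAR and hg19, and the counting tool is not given in the sources used here. FPKM times gene length came to whole fragments (within 0.001) for 100% of values.

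limma 3.58.1 (R 4.3.3, eBayes with trend, two-sided, Benjamini-Hochberg) was run on log2(FPKM + 1), which understates changes of low genes, after a filter at a mean FPKM of 1. A per-gene test without shared variance, on the same scale, filter and adjustment, served as an alternative. The study names a Student's t test per gene without giving its scale or filter, so its procedure may differ. A simulation with 2 groups gave 200 of 12080 genes a change. There the fit found 99.0% of tested log2 changes of 1 and 75.5% of those of 0.5. False calls made up 10.9% of its total. In the measured libraries 50.8% of genes tested were called, a far larger share than was changed in the simulation. Its rates may therefore not hold for the measured comparison. Members and lists were chosen with earlier results of these data known. From the wider list, the text names by rule up to 3 called genes per role and direction, by size of change, whose groups did not overlap, and genes that no library raised to an FPKM of 0.1. Overlapping genes could share reads, since strand-specific counting is not stated.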

Additional observations from a re-analysis of the deposited data

Results flagged for a closer look

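ALB, a liver gene outside the Notch comparison, had 102 fragments in MGH-CP1 replicate 2 against 3 in MGH-CP1 replicate 1 and 0 in both vehicle control libraries, a signal above the level of the controls. Among other liver genes, picked after ALB was seen, that library also held 23 fragments of TF, 14 of FGA, 9 of APOA1 and 5 of FGB, against at most 7 of any of them elsewhere. APOA1 was present in every library, with 3 and 5 fragments with vehicle and 7 in MGH-CP1 replicate 1. Of APOA2 and TTR that library held only 1 fragment each, and of HP 0. Without it JAG2 was still called higher (log2 fold change 0.44, limma adjusted p = 0.0213) and NOTCH2 lower (-0.29, limma adjusted p = 0.0107).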

How the results depend on the processing

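Calls are from limma unless stated. The 1 member called higher became 0 at a mean FPKM of at least 5, where JAG2 was not tested, and 0 with a variance for each gene alone, and it became 2, with NOTCH3, in limma voom with 10 or more fragments, added after the data were seen. The 1 member called lower became 0 with no filter and 0 with a variance for each gene alone. At an unadjusted p under 0.05 that per-gene test held 1 member higher and 1 lower. The lower one was NOTCH1 (per-gene test adjusted p = 0.0555) and not NOTCH2 (per-gene test adjusted p = 0.161). At the same unadjusted threshold limma with no filter held 2 higher and 2 lower. With each library left out in turn 1 member was higher and 0 to 1 lower. In the wider list 13 higher and 12 lower became 7 and 6 with no filter, which called 9.16% and 7.41% of all genes. They became 0 and 0 in the per-gene test (11 and 9 unadjusted), which called 9 of all 12080 genes higher and 4 lower. With each library left out 9 to 11 were higher and 8 to 11 lower. Quantile normalization turned the log2 fold change of JAG1 to 0.0083. With each library left out it was -0.031 to 0.024 for JAG1, -0.18 to 0.023 for HES1 and -0.20 to 0.030 for HES4, and none of these 3 genes was called in any setting. The difference in share was -2.46 to -0.68 percentage points for NOTCH2 and -4.38 to -2.99 for JAG1. The labels give replicates only a number (correlation of same-numbered deviations 0.0777), and with it as a replicate block 1 member was higher and 1 lower, and 14 and 13 of the wider list. Of 91 values of members under alternatives 4 lost a call and 1 gained it, and of 328 values of 24 named genes 61 lost it. The causes were not tested.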
